A study of Homo sapiens with 24 samples.

Results

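The genes that encode collagen chains are 43 of the 48162 genes in the deposited count table, taken as the protein-coding rows whose symbol is COL, a number, the letter A and a number. Of these, 41 were above 3 counts in at least 1 library and 22 were above 3 counts in all 24 libraries. The mean count was above 3 for 28 of them in parental cells, for 28 in parental cells with LCL521, for 35 in PGCC and for 36 in PGCC with LCL521. COL22A1 and COL6A5 never passed 3 counts, with highest counts of 2 and 1.

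RNA was sequenced from PPC1, a human prostate cancer cell line, as parental cells and as polyploid giant cancer cells (PGCC), with 6 libraries in each of 4 conditions. Parental cells (UT) had neither radiation nor drug and were harvested on day 5, and parental cells with LCL521 (UT_LCL) had a concentration of 5 μM for 5 hours before that harvest. PGCC were given 8 Gy on day 2, detached on day 5 and caught on a 20 micron strainer, and PGCC with LCL521 (PGCC_LCL) had radiation, the same 5 μM exposure and the strainer. The labels and the study's methods number the day of exposure differently, as day 5 and as day 3. LCL521 inhibits ASAH1, the acid ceramidase of the lysosome. The strainer was used on the irradiated plates alone, so radiation, size selection and polyploidy cannot be told apart, and every library came from 1 cell line. The labels describe 6 independent rounds of the experiment, with the 4 conditions harvested in parallel, so libraries of the same replicate number belong together. The main fits leave this pairing out, and every SE, interval and adjusted p is from them unless the replicate block is named. Fits with the replicate number as a block are given as an alternative.

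Collagens are secreted or membrane proteins built from 3 chains wound into a triple helix, so most types need the products of several genes in fixed proportion. Fibrillar collagens form the fibres of connective tissue, type IV chains form the sheet of basement membranes, type VI forms beaded filaments around cells, and other types decorate fibrils or span the plasma membrane. Epithelial cells and the carcinomas that arise from them are known for making basement membrane and cell-surface collagens, while fibroblasts make most fibrillar collagen.

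The promoters of 3 genes are shown. COL17A1 and COL13A1 had some of the largest changes below, and COL4A5 lies head to head with COL4A6, which also did. An entry in RefSeq's promoter table (build GRCh38.p14) was found for 31 of the 43 genes. The sequences below run 5′ to 3′ on the gene's strand and end at the base before the start site, or before the first annotated exon base where 77 bases (COL17A1) or 39 bases (COL13A1) were left out. Capitals mark a CCAAT box (CCAAT, or ATTGG on the other strand) or a TATA box (TATAAA, or TTTATA). The COL4A5 stretch, chrX:108439588-108439837 on the plus strand, lies within the 379 bases between the start of COL4A5 and the nearer start of COL4A6, which is read in the other direction. The COL17A1 stretch is chr10:104085958-104086130 on the minus strand and the COL13A1 stretch is chr10:69801656-69801866 on the plus strand.
COL4A5: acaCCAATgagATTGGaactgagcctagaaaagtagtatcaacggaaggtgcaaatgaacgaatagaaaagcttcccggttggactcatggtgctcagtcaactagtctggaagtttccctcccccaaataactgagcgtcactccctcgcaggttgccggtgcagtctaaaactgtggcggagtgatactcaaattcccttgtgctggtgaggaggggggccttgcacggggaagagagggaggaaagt
COL17A1: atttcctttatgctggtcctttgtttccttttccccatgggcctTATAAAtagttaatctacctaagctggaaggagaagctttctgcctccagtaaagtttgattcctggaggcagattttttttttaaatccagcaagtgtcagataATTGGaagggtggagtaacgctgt
COL13A1: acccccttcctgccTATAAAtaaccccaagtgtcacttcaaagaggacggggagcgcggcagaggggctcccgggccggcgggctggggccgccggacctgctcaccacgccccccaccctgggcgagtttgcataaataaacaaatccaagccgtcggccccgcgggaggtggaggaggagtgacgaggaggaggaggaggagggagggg

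In the 250 bases before the start, counted over both strands, a CCAAT box was in 12 of the 43 promoter entries of collagen genes (27.9%), where a gene can have several entries, and in 32.0% of all 35116 entries. The TATA box was in 8 of 43 (18.6%) and in 10.7% of all. The GC box (GGGCGG or CCGCCC) was in 24 of 43 (55.8%) and in 42.6% of all, and the AP-1 site (TGAGTCA or TGACTCA) was in 0 of 43 and in 4.20% of all. These matches describe the letters of the windows and say nothing of binding.

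The libraries held 14835246 to 19906601 gene counts each. A level of 3 counts lay between 0.15 and 0.207 CPM (counts scaled for library size, here with edgeR's TMM factors), and this floor covers counting error only. Epithelial markers (EPCAM, CDH1, KRT8, KRT18 and KRT19) were all detected, with a summed level of 782 to 1032 CPM in parental cells and 966 to 1478 CPM in PGCC. Of 5 markers of prostate luminal cells none had a mean above 3 counts, and KLK3 and KLK2 were at 0 in every library. Of 8 fibroblast markers, PDGFRA and LUM were above 3 counts on average, and the summed level of the list was 0.174 to 1.57 CPM in parental cells and 3.74 to 4.42 CPM in PGCC. VWF was the detected endothelial marker of 2 in the table, with a summed level of at most 1.34 CPM, and PTPRC and CD14 were the detected leukocyte markers of 3, at 0.464 to 2.97 CPM in parental cells and 2.84 to 4.43 CPM in PGCC. Their part in the collagen values was not tested.

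The collagen chain genes took 0.158% ± 0.0109 of the counts in parental cells and 0.323% ± 0.0257 in PGCC (mean ± SD of 6 libraries each). Their TMM-scaled summed level was 1651 CPM ± 120 (SD, n = 6) in parental cells, with libraries from 1520 to 1793 CPM, and 3141 CPM ± 273 (SD, n = 6) in PGCC, with libraries from 2822 to 3487 CPM. The groups did not overlap. With LCL521 the sum was 1596 ± 135 CPM in parental cells and 3240 ± 285 CPM in PGCC (SD of 6 each). COL6A1 and COL6A2 together made up 52.7% of the sum in parental cells and 61.4% in PGCC. In bulk RNA a higher share of cells that express a gene and more RNA per expressing cell cannot be told apart.

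When PGCC were set against parental cells, 24 collagen chain genes had enough counts for edgeR's quasi-likelihood test. Of these, 14 rose in PGCC, 0 fell and 10 did not pass an adjusted p of 0.05. The share of all 13812 genes tested was 23.1% for higher and 24.3% for lower. In log2 fold change, the median was 0.72 over the 24 collagen genes and -0.03 over all genes tested. A gene low in parental cells could enter this count through PGCC alone, so the 24 genes are not the whole family. COL17A1, COL24A1, COL11A2 and COL15A1 reached the filter in all 6 PGCC libraries and in 0, 2, 5 and 3 parental libraries, and the first pair of these are among the 14. With the replicate number as a block, 16 rose and 0 fell, beside 27.9% and 28.3% of all genes. When libraries were scaled by their totals alone, 15 rose and 0 fell beside 27.7% and 18.3% of all genes, and the higher share of all called genes went from 48.7% to 60.2%. With no filter on low counts, 20 of 43 rose and 0 fell, beside 14.8% and 11% of 29759 genes, and the 6 beyond the 14 already called were COL12A1, COL11A1, COL20A1, COL14A1, COL4A3 and COL19A1.

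**Figure D1:**
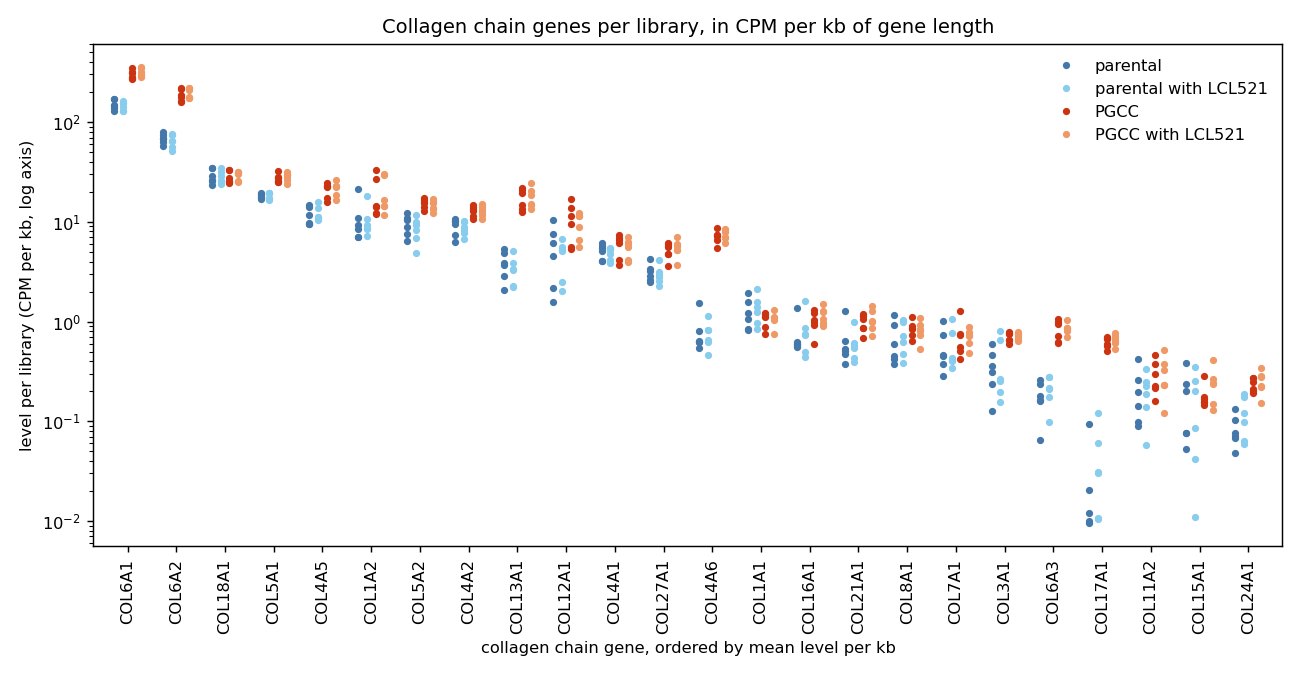
Level of the 24 tested collagen chain genes in each of the 24 libraries, in CPM per kilobase of gene length on a log axis, with 6 points per condition and values of 0 left out. COL6A1 is highest, at a mean of 150 CPM per kb in parental cells and 303 CPM per kb in PGCC, and COL17A1 is the gene with the widest distance between the 2 populations.

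Per kilobase of gene length, COL6A1 was the highest chain, followed by COL6A2, COL18A1, COL5A1 and COL4A5. In parental cells their mean levels were 150, 68.3, 29, 18.2 and 11.6 CPM per kb, and in PGCC they were 303, 187, 28.0, 27.4 and 21.0 CPM per kb. COL18A1 and COL5A1, neighbours in that order, differed beyond their spread in parental cells (SD 4.72 and 0.862 CPM per kb, n = 6) and did not in PGCC (SD 3.87 and 2.61 CPM per kb, n = 6).

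Type VI collagen rose in PGCC in all 3 chains that could be tested, where 23.1% of all genes did. COL6A1 (ENSG00000142156, hg19 chromosome 21 from 47401651 to 47424964), which encodes the alpha 1 chain, had 543, 626 and 717 CPM (lowest, median and highest of 6 libraries) in parental cells and 1155, 1261 and 1494 CPM in PGCC. All PGCC libraries lay above all parental ones. The log2 fold change was 1.02 (SE 0.09, adjusted p = 6.9e-07 in edgeR, adjusted by Benjamini-Hochberg over all genes tested).

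COL6A2 (ENSG00000142173, chromosome 21 from 47518011 to 47552763) encodes the partner chain alpha 2 and lies 93046 bases from COL6A1 on the same strand. It had 197, 238 and 275 CPM in parental cells and 555, 629 and 766 CPM in PGCC, again without overlap. Its log2 fold change was 1.46 (SE 0.10, adjusted p = 1.3e-07, edgeR). Per kilobase, the ratio of COL6A2 to COL6A1 was 0.456 ± 0.028 (SD, n = 6) in parental cells and 0.618 ± 0.030 (SD, n = 6) in PGCC, and the 12 values fell into separate ranges, 0.412 to 0.488 and 0.588 to 0.672. The 2 genes rose unequally, with COL6A2 gaining on COL6A1.

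COL6A3 (ENSG00000163359, chromosome 2 from 238232646 to 238323018) encodes the large alpha 3 chain that joins them in the classical type VI molecule. It was far below its partners, at 0.696, 1.83 and 2.77 CPM in parental cells and 6.51, 8.94 and 11.3 CPM in PGCC, with no overlap. Its log2 fold change was 2.22 (SE 0.27, adjusted p = 1.5e-05, edgeR). Per kilobase the ratio of COL6A3 to COL6A1 was 0.00118 in parental cells and 0.00275 in PGCC, so COL6A3 RNA stayed far below COL6A1 RNA in both populations. COL6A6 reached 4 counts in a single library and COL28A1, a related chain, at most 8 counts.

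**Figure D2:**
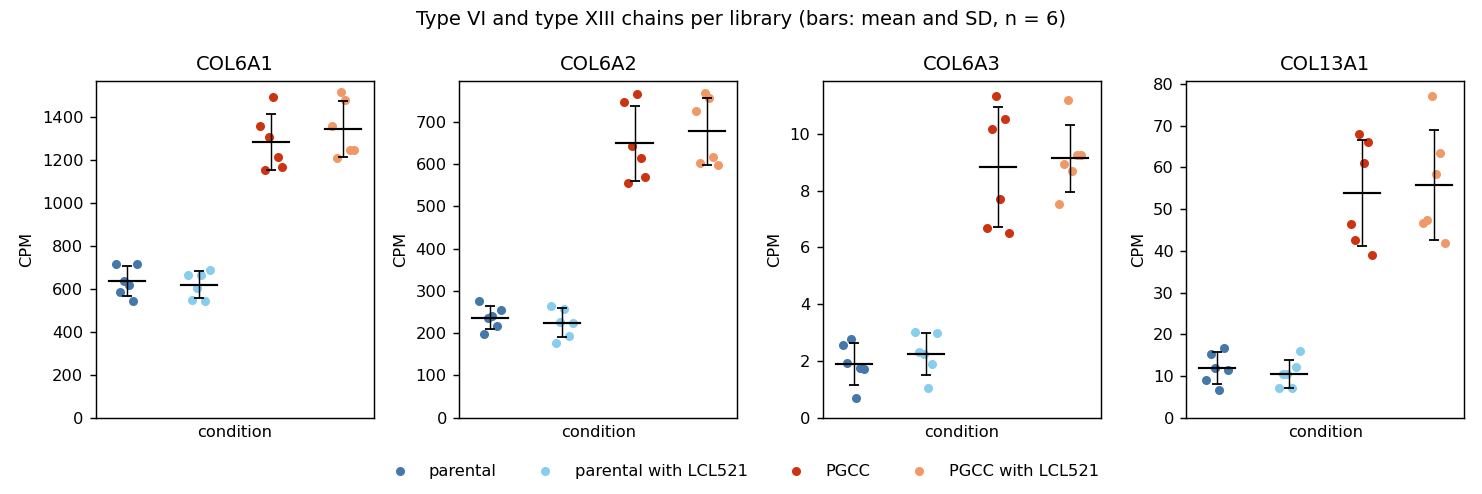
Level in CPM of COL6A1, COL6A2, COL6A3 and COL13A1 in each library by condition, each axis starting at 0, with bars for the mean and SD of 6 libraries. In all 4 genes the PGCC libraries lie above the parental libraries, with and without LCL521, and the 2 LCL521 groups overlap their untreated counterparts.

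Of the 4 membrane-spanning chains, COL13A1 and COL17A1 had enough counts to be tested, COL17A1 through PGCC alone. COL13A1 (ENSG00000197467, chromosome 10 from 71561644 to 71724031), whose promoter is printed above, encodes a collagen that sits in the plasma membrane at sites of cell adhesion. It had 6.55, 11.8 and 16.8 CPM in parental cells and 38.9, 53.8 and 68.1 CPM in PGCC, and the lowest PGCC library stood above the highest parental one. The log2 fold change was 2.19 (SE 0.22, adjusted p = 2.9e-06, edgeR), or 4.56-fold (95% interval 3.28 to 6.32).

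COL17A1 (ENSG00000065618, chromosome 10 from 105791044 to 105845760) encodes the collagen of hemidesmosomes, which ties basal epithelial cells to the basement membrane. Parental cells were near the floor, where the 6 libraries held 14 counts in all and 9 of them came from replicate 3. In PGCC the 6 libraries held 382 counts, from 57 to 80 each, or 2.90, 3.59 and 4.03 CPM. The fitted log2 fold change was 4.62 (SE 0.46, adjusted p = 2.7e-06, edgeR). With counts this low in parental cells the fitted size depends on the prior count, and it is given as a value of this fit and not as a bound. Without replicate 3 it was 5.73. The other chains of the class, COL23A1 and COL25A1, had at most 10 and 13 counts in any library and were not tested.

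Of the type IV chains, 3 of the 4 tested rose, where 23.1% of all genes did, by very different amounts. COL4A6 (ENSG00000197565, chromosome X from 107386780 to 107682727) and COL4A5 (ENSG00000188153, chromosome X from 107683074 to 107940775) encode the alpha 6 and alpha 5 chains, which assemble together in the basement membranes of some epithelia. Their genes lie head to head, 346 bases apart in the file, across the stretch printed above. COL4A6 had 3.61, 4.24 and 10.3 CPM in parental cells and 36.5, 49.0 and 58.1 CPM in PGCC. Its groups did not overlap and its log2 fold change was 3.17 (SE 0.24, adjusted p = 2.4e-07, edgeR), the largest among the chains above 3 counts in every library. COL4A5 had 62.1, 68.8 and 96.2 CPM in parental cells and 102, 147 and 159 CPM in PGCC, also without overlap, and its log2 fold change was 0.87 (SE 0.14, adjusted p = 2.2e-04, edgeR).

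The ratio of COL4A6 to COL4A5 per kilobase was therefore 0.0675 ± 0.022 (SD, n = 6) in parental cells and 0.341 ± 0.030 (SD, n = 6) in PGCC. The highest parental ratio was 0.109 and the lowest PGCC ratio was 0.302. COL4A6 also shares 11122 bases of its extent with ATG4A on the other strand, and the log2 fold change of ATG4A was 0.06 (adjusted p = 0.72, edgeR). Whether the counting used strand is not stated in the sources used here, so reads of overlapping genes on opposite strands may have been mixed.

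COL4A2 and COL4A1 encode the alpha 2 and alpha 1 chains, the common network of nearly all basement membranes, and are also a head-to-head pair. Their starts are 126 bases apart in RefSeq, and their extents share 1338 bases in the file. COL4A2 (ENSG00000134871, chromosome 13 from 110958159 to 111165374) had 39.8, 62.0 and 66.5 CPM in parental cells and 67.2, 82.7 and 92.1 CPM in PGCC. The groups were separate by a narrow margin and the log2 fold change was 0.52 (SE 0.13, adjusted p = 0.0057, edgeR). COL4A1 (ENSG00000187498, chromosome 13 from 110801318 to 110959496) had 26.1, 34.4 and 40.3 CPM in parental cells and 24.0, 41.8 and 48.5 CPM in PGCC, which overlapped. Its log2 fold change was 0.21 (95% interval -0.18 to 0.60, adjusted p = 0.36, edgeR). With the replicate block the interval was -0.0374 to 0.40, and the log2 fold change of COL4A2 was 0.53. Per kilobase, the ratio of COL4A2 to COL4A1 was 1.78 ± 0.14 (SD, n = 6) in parental cells and 2.31 ± 0.46 (SD, n = 6) in PGCC, with overlapping ranges. Within replicate numbers it was higher in PGCC in 6 of 6 pairs, and with LCL521 in 5 of 6.

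**Figure D3:**
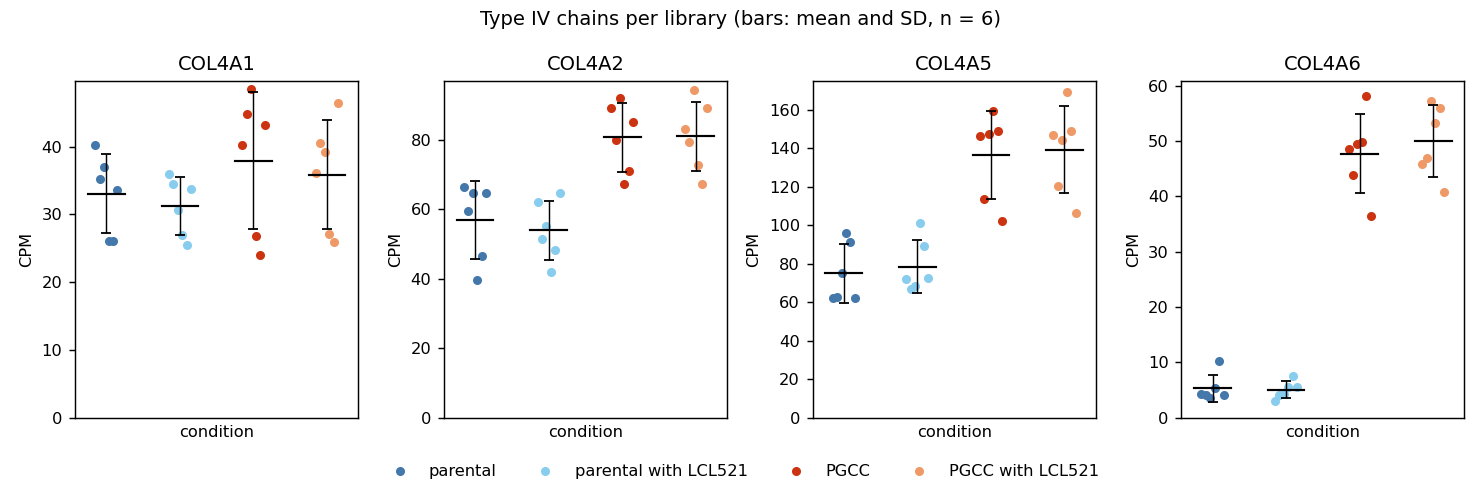
Level in CPM of the type IV chains COL4A1, COL4A2, COL4A5 and COL4A6 in each library by condition, each axis starting at 0, with bars for the mean and SD of 6 libraries. COL4A6 goes from a mean of 5.30 CPM in parental cells to 47.7 CPM in PGCC, while COL4A1 goes from 33.1 to 38.0 CPM with overlapping libraries.

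The remaining type IV pair, COL4A3 and COL4A4, known from the kidney glomerulus, was too low to be tested. COL4A3 had 21 counts over the 6 parental libraries and 74 over the 6 PGCC libraries, and COL4A4 had 6 and 5. COL4A3 shares 93741 bases of its extent with an antisense gene, AC097662.2. Whether its counts include reads of that gene was not tested. AC097662.2 went the other way, with a log2 fold change of -0.67 (adjusted p = 0.017, edgeR).

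Of the fibrillar chains, 6 of the 8 tested rose, where 23.1% of all genes did. COL5A1 (ENSG00000130635, chromosome 9 from 137533620 to 137736686) encodes the alpha 1 chain of type V, which starts and limits the growth of type I fibrils. It had 145, 153 and 164 CPM in parental cells and 212, 227 and 271 CPM in PGCC, without overlap. The log2 fold change was 0.59 (SE 0.07, adjusted p = 2.0e-05, edgeR). COL5A2 (ENSG00000204262), its alpha 2 partner, had 44.7, 67.0 and 86.1 CPM in parental cells and 89.8, 109 and 119 CPM in PGCC, a log2 fold change of 0.71 (SE 0.15, adjusted p = 0.0012, edgeR). Per kilobase the ratio of COL5A2 to COL5A1 was 0.520 ± 0.13 (SD, n = 6) in parental cells and 0.560 ± 0.048 (SD, n = 6) in PGCC, a difference smaller than the spread between libraries and higher in PGCC in 3 of 6 pairs. COL5A3 had at most 4 counts.

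COL3A1 (ENSG00000168542, chromosome 2 from 189839046 to 189877472), the type III chain of elastic tissues, lies tail to tail with COL5A2 at a distance of 19149 bases. It was low, at 0.699, 1.86 and 3.31 CPM in parental cells and 3.33, 3.91 and 4.39 CPM in PGCC. The groups did not overlap, though the highest parental and the lowest PGCC library were close, and the log2 fold change was 1.02 (SE 0.28, adjusted p = 0.0077, edgeR). COL24A1 (ENSG00000171502, chromosome 1 from 86194916 to 86622626), a minor fibrillar chain, had 0.327, 0.502 and 0.899 CPM in parental cells and 1.31, 1.57 and 1.87 CPM in PGCC, without overlap. Its log2 fold change was 1.5 (SE 0.25, adjusted p = 2.2e-04, edgeR). COL27A1, another minor fibrillar chain, had 24.3 ± 4.82 CPM in parental cells and 40.1 ± 7.36 CPM in PGCC (SD of 6 each), with a log2 fold change of 0.73 (adjusted p = 0.0014, edgeR) and overlapping libraries.

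The chains of type I, the main collagen of bone and skin, did not move together. COL1A2, the alpha 2 chain, had 42.4, 53.0 and 127 CPM in parental cells and 71.3, 85.1 and 199 CPM in PGCC. The groups overlapped, and its log2 fold change of 0.82 (SE 0.32) passed narrowly, with an adjusted p of 0.047 by edgeR. Without replicate 1, 2, 3, 4 or 6 its adjusted p by edgeR was between 0.073 and 0.13, so this call depended on each of them, while with the replicate block the SE was 0.10 and the adjusted p was 1.3e-04. COL1A1, the alpha 1 chain, had 5.53, 7.62 and 13.1 CPM in parental cells and 5.00, 7.54 and 8.17 CPM in PGCC, with a log2 fold change of -0.23 (95% interval -0.70 to 0.23, adjusted p = 0.40, edgeR). Type I molecules are known to hold more alpha 1 than alpha 2 chains, yet per kilobase COL1A2 RNA exceeded COL1A1 RNA in every library. The ratio lay between 4.34 and 25.7 in parental cells and between 10.3 and 37.3 in PGCC.

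COL11A2 of the cartilage type XI was low, at 1.30 ± 0.80 CPM in parental cells and 1.87 ± 0.71 CPM in PGCC (SD of 6 each), and did not pass (adjusted p = 0.25, edgeR). Its partner COL11A1 had 8 counts over the 6 parental libraries and 128 over the 6 PGCC libraries, from 10 to 35 each. It was not tested here. All parental libraries were below the filter, and so was PGCC replicate 4, with 10 counts of COL11A1 in a library of 19590419. The highest parental library held 4 counts, below the lowest PGCC library. COL2A1, the main cartilage chain, had at most 8 counts.

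Of the chains that decorate fibrils, 3 of 10 were tested. Without the block 0 passed, where 23.1% of all genes were higher and 24.3% were lower. With the block 2 of the 3 were higher, beside 27.9% of all genes. COL12A1, a large chain of tendon and stroma, had 18.5, 62.3 and 124 CPM in parental cells and 62.9, 123 and 199 CPM in PGCC, with overlap. Its log2 fold change was 0.96 (SE 0.42, adjusted p = 0.072, edgeR), and with the replicate block it was 1.10 (SE 0.17, adjusted p = 4.9e-04, edgeR), being higher in PGCC in 6 of 6 pairs. COL21A1 had 2.75 ± 1.41 CPM in parental cells and 4.19 ± 0.86 CPM in PGCC (SD of 6 each), with a log2 fold change of 0.61 (adjusted p = 0.082, edgeR), and 0.69 with the block (adjusted p = 0.046, edgeR). COL16A1 had 4.11 ± 1.80 and 5.79 ± 1.41 CPM (SD of 6 each), and did not pass (adjusted p = 0.12, edgeR). The other 7 were not tested. Of these, COL14A1 had 17 counts over the parental and 91 over the PGCC libraries, COL20A1 had 4 and 52, and COL19A1 had 8 and 35. COL9A1, COL9A2, COL9A3 and COL22A1 had at most 4, 12, 14 and 2 counts in any library.

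The chains that carry an endostatin domain, a fragment known to restrain blood vessel growth, showed no change that passed. COL18A1 (ENSG00000182871, chromosome 21 from 46825052 to 46933634), the third highest chain per kilobase, had 156, 184 and 230 CPM in parental cells and 162, 175 and 217 CPM in PGCC. The ranges coincided almost wholly, and the log2 fold change was -0.04 (SE 0.11, 95% interval -0.29 to 0.20, adjusted p = 0.77, edgeR). This interval leaves out rises of the size of COL5A1. COL18A1 shares 20149 bases with SLC19A1 on the other strand, which was lower in PGCC (log2 fold change -0.48, adjusted p = 0.037, edgeR). COL15A1 was low, at 0.938 ± 0.70 CPM in parental cells and 0.994 ± 0.28 CPM in PGCC (SD of 6 each), with an interval of -0.82 to 0.98 on the log2 scale that allows changes in either direction.

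COL7A1, the anchoring fibril chain that fastens basement membrane to the tissue below, had 5.14 ± 2.52 CPM in parental cells and 6.56 ± 2.80 CPM in PGCC (SD of 6 each) (adjusted p = 0.38, edgeR). COL8A1, a short chain of network-forming type VIII, had 3.73 ± 1.80 and 4.86 ± 0.90 CPM (SD of 6 each) and did not pass (adjusted p = 0.26, edgeR). COL8A2 had at most 5 counts and COL10A1, the growth plate chain, at most 8, and COL10A1 lies within the extent of NT5DC1 on the other strand.

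**Figure D4:**
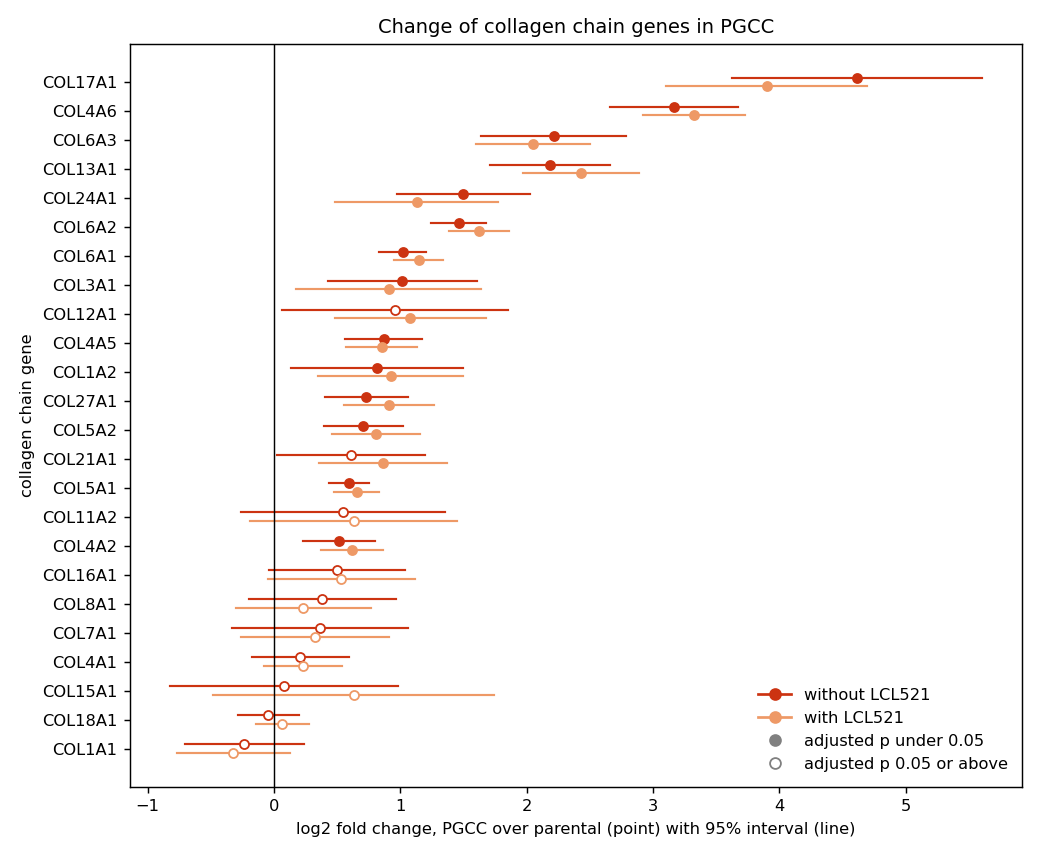
Log2 fold change of PGCC over parental cells for the 24 collagen chain genes tested, as points with 95% intervals, without LCL521 (red) and with LCL521 (orange), filled where the adjusted p was under 0.05. No filled point lies left of 0, and COL17A1 at 4.62 and COL4A6 at 3.17 lie farthest to the right. COL11A1, tested with LCL521 only, is not drawn.

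The same contrast was measured again in the 12 libraries given LCL521, which come from the same 6 rounds of the experiment and are not independent of them. Of the 25 collagen genes tested there, 17 rose in PGCC, 0 fell and 8 did not pass, where 25% of the 13818 genes tested were higher and 23.9% were lower. The log2 fold change was 1.14 for COL6A1, 1.62 for COL6A2, 2.05 for COL6A3, 2.43 for COL13A1, 3.90 for COL17A1 and 3.33 for COL4A6. COL4A5 had 0.85, COL4A2 0.61, COL5A1 0.66, COL5A2 0.81, COL27A1 0.91 and COL1A2 0.92 on the same log2 scale. COL17A1 was the chain of these whose fitted size was over 1.5 times apart with and without the drug. COL12A1 (1.08, adjusted p = 0.0052, edgeR) and COL21A1 (0.86, adjusted p = 0.0075, edgeR), which did not pass without LCL521, passed here. COL11A1 entered the test with a log2 fold change of 3.08 (SE 0.41, adjusted p = 3.1e-05, edgeR), with 11 counts over the parental and 102 over the PGCC libraries. COL11A1 reached the filter in 0 parental and 6 PGCC libraries, so it could enter the 17 through PGCC alone. COL17A1 and COL24A1, also among the 17, reached it in 1 and 4 parental libraries and in all 6 PGCC libraries. COL11A2 and COL15A1, which did not pass, reached it in 5 and 3 parental libraries. COL24A1 (1.13) and COL3A1 (0.91) passed, with overlapping libraries, and COL3A1 lost its call without replicate 2, 3, 5 or 6 (adjusted p between 0.098 and 0.12, edgeR). COL18A1 (0.07), COL4A1 (0.23), COL1A1 (-0.32), COL15A1 (0.63), COL16A1 (0.53), COL7A1 (0.32), COL8A1 (0.23) and COL11A2 (0.63) did not pass. With the replicate block the numbers were again 17 and 0, beside 29.5% and 26.8% of all genes. The fitted value of COL17A1 was 4.52 without replicate 1. Without replicates 4 and 5, 20 of 26 rose and 1 fell (COL1A1 at -0.62), beside 27.9% and 24.6% of all genes, and with the block as well 22 rose and 1 fell, beside 30.7% and 26.9%. With no filter on low counts 24 of 43 rose and 0 fell, beside 15.4% and 11.7%.

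Levels in the LCL521 libraries are given as the lowest, median and highest of 6. COL6A1 had 544, 633 and 689 CPM in parental cells with LCL521 and 1210, 1303 and 1518 CPM in PGCC with LCL521. COL6A2 had 177, 225 and 265 CPM in parental cells with LCL521 and 598, 671 and 766 CPM in PGCC with LCL521. The type VI groups were again separate, COL6A3 included. COL6A3 had 1.05, 2.27 and 3.02 CPM in parental cells with LCL521 and 7.54, 9.09 and 11.2 CPM in PGCC with LCL521. COL13A1 had 7.03, 10.5 and 15.9 CPM in parental cells with LCL521 and 41.8, 52.9 and 77.2 CPM in PGCC with LCL521. COL17A1 had 0.0607, 0.176 and 0.692 CPM in parental cells with LCL521 and 3.04, 3.75 and 4.39 CPM in PGCC with LCL521. COL13A1 and COL17A1 also kept separate groups. COL4A6 had 3.08, 4.94 and 7.60 CPM in parental cells with LCL521 and 40.8, 50.2 and 57.2 CPM in PGCC with LCL521. COL4A5 had 66.9, 72.3 and 101 CPM in parental cells with LCL521 and 107, 145 and 169 CPM in PGCC with LCL521. COL5A1 had 141, 155 and 166 CPM in parental cells with LCL521 and 201, 245 and 266 CPM in PGCC with LCL521. These 3 chains showed no overlap either, while COL18A1 overlapped almost fully. COL18A1 had 159, 180 and 230 CPM in parental cells with LCL521 and 166, 200 and 209 CPM in PGCC with LCL521.

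The other chains are given as the mean ± SD of 6 libraries, first in parental cells with LCL521 and then in PGCC with LCL521. COL4A2 was at 54.0 ± 8.55 and 81.0 ± 10.0 CPM. COL5A2 was at 59.1 ± 16.8 and 101 ± 11.9 CPM. COL27A1 was at 23.2 ± 5.15 and 42.8 ± 8.55 CPM. Of these 3, COL27A1 had overlapping libraries and the other two did not. COL1A2 was at 62.3 ± 23.3 and 116 ± 48.9 CPM. COL12A1 was at 53.2 ± 21.8 and 110 ± 32.8 CPM. COL21A1 was at 2.57 ± 0.917 and 4.57 ± 1.16 CPM. In these 3 the libraries of the conditions overlapped. COL4A1 was at 31.2 ± 4.29 and 35.9 ± 8.01 CPM. COL16A1 was at 4.66 ± 2.38 and 6.64 ± 1.26 CPM. COL1A1 was at 9.10 ± 3.08 and 7.16 ± 1.21 CPM. Of these, COL1A1 had its lower mean in PGCC. COL7A1 was at 5.28 ± 2.64 and 6.53 ± 1.30 CPM. COL8A1 was at 4.02 ± 1.52 and 4.66 ± 1.05 CPM. COL3A1 was at 2.15 ± 1.5 and 3.95 ± 0.302 CPM. COL3A1 varied less among PGCC than among parental libraries. COL11A2 was at 1.27 ± 0.605 and 1.94 ± 0.886 CPM. COL15A1 was at 0.861 ± 0.727 and 1.31 ± 0.547 CPM. COL24A1 was at 0.800 ± 0.374 and 1.72 ± 0.448 CPM. The last 3 were the lowest chains of this group.

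Replicates 4 and 5 stood apart from replicates 1, 2, 3 and 6 in several chains, in all 4 conditions alike. Among the 24 genes tested, COL1A2 and COL4A5 had both of these replicates above the other 4 in every condition, and COL12A1, COL4A1 and COL4A2 had both below. The share of all genes divided in this way was not counted, so the division is not read as a trait of collagen chains. COL12A1 had 18.5 and 25.6 CPM in replicates 5 and 4 of parental cells against 52.8 to 124 CPM in the other replicates, and 62.9 and 65.8 CPM against 112 to 199 CPM in PGCC. COL1A2 went the other way, with 65.2 and 127 CPM against 42.4 to 55.3 CPM in parental cells and 161 and 199 CPM against 71.3 to 86.4 CPM in PGCC. The labels give no reason for this division, and what sets these replicates apart was not tested.

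**Figure D5:**
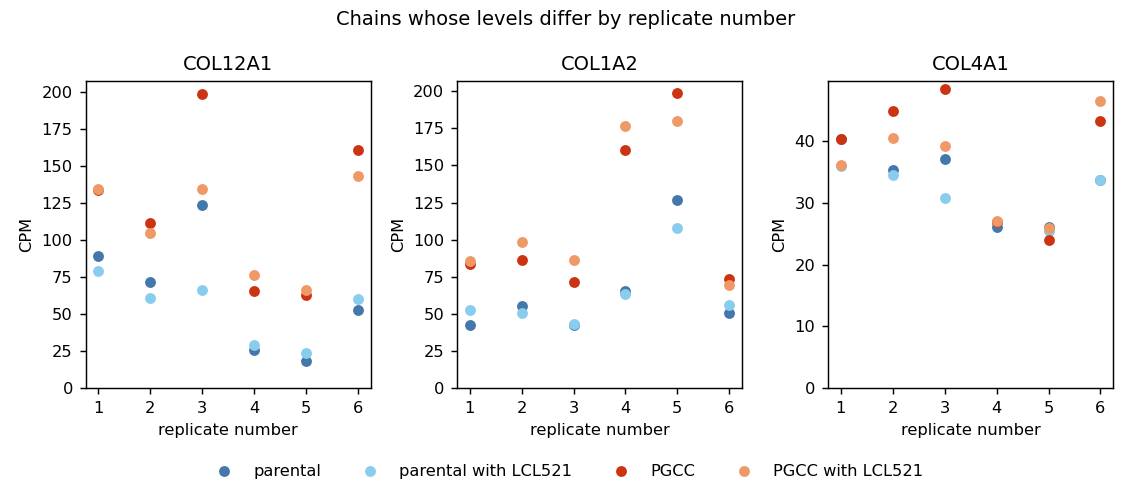
Level in CPM of COL12A1, COL1A2 and COL4A1 by replicate number, with 1 point per library coloured by condition and each axis starting at 0. Replicates 4 and 5 lie below the others of their condition in COL12A1 and COL4A1 and above them in COL1A2.

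The difference between PGCC and parental cells was therefore also read within each set of replicates, as the mean paired difference in log2 CPM. For COL12A1, replicates 1, 2, 3 and 6 gave 0.88 and replicates 4 and 5 gave 1.54, and for COL1A2 it was 0.72 and 0.97. COL6A1 had 0.91 and 1.22, COL6A2 1.38 and 1.59, COL4A6 3.30 and 2.78, and COL13A1 1.98 and 2.53. These chains were higher in PGCC in both sets. COL5A2 had 0.96 in the first set and 0.24 in the second, and COL4A1 0.27 and -0.04. COL8A1 (0.83 and -0.39), COL1A1 (-0.40 and 0.25) and COL18A1 (-0.19 and 0.24) had opposite signs in the 2 sets, and none of the 3 passed over all 6 replicates. Without replicates 4 and 5, 20 of 25 collagen genes tested were higher in PGCC and 0 were lower, beside 27.7% and 26.9% of all genes, with COL12A1, COL21A1, COL16A1, COL8A1 and COL4A1 among the additional calls. With the block as well, 22 rose and 2 fell (COL1A1 at -0.41 and COL18A1 at -0.17), beside 32.7% and 31.6% of all genes.

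LCL521 moved no collagen chain past the threshold. In parental cells, 0 of 23 collagen genes tested were called by edgeR, where 0% of all 13277 genes were called and 71 had an unadjusted p under 0.05. The smallest p-values were those of COL24A1 (log2 fold change 0.51, 95% interval -0.24 to 1.26), COL6A3 (0.25, interval -0.43 to 0.93) and COL5A2 (-0.15, interval -0.58 to 0.29). In PGCC, 0 of 27 were called, beside 0.00707% of 14151 genes, and 218 genes had an unadjusted p under 0.05. COL15A1 (0.39, interval -0.21 to 1.00), COL16A1 (0.20, interval -0.19 to 0.59) and COL11A1 (-0.32, interval -0.98 to 0.35) had the smallest p-values there. For the highest chain, COL6A1, the change with LCL521 in PGCC was 0.07 (interval -0.09 to 0.23), which leaves out a change of the size seen between parental cells and PGCC.

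With the replicate block the numbers of collagen genes called stayed at 0 in both populations, while the block called 115 genes in all in parental cells (0.866%) and 234 in PGCC (1.65%). By edgeR, 12.4% of all genes in parental cells and 14.3% in PGCC had an unadjusted p under 0.05. Without the block these shares were 0.535% and 1.54%, and the intervals above come from that less sensitive fit. In parental cells the smallest p-values with the block were those of COL6A2 (-0.08, interval -0.16 to 0.009), COL5A2 (-0.16, interval -0.33 to 0.019) and COL4A5 (0.08, interval -0.03 to 0.18). In PGCC with the block, 1 of 27 collagen genes had an unadjusted p under 0.05 by edgeR, beside 14.3% of all genes. It was a type VI chain, and the 3 type VI chains tested had log2 fold changes of 0.067 to 0.069. The difference between the LCL521 effects in the 2 populations passed for 0 of 27 collagen genes and 0% of 14555 genes by edgeR, with and without the block, and 60 genes had an unadjusted p under 0.05 without it. COL17A1 (-0.74, interval -2.10 to 0.62), COL24A1 (-0.39, interval -1.19 to 0.41) and COL11A1 (-0.76, interval -2.41 to 0.89) had the smallest p-values. The 3 genes had few counts in parental cells.

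The machinery that makes, binds and degrades collagen was described from 4 gene lists. As with the collagen chains, a gene low in parental cells could be tested through PGCC alone, and this was not examined for the lists. Of 37 genes for the folding, secretion, trimming and cross-linking of collagen, 31 were tested in PGCC against parental cells, 12 rose and 5 fell, beside 23.1% and 24.3% of all genes, with a median log2 fold change of 0.13. With the block 13 rose and 7 fell, beside 27.9% and 28.3%. LOXL2, a cross-linking oxidase, had 15.1 ± 2.80 CPM in parental cells and 65.0 ± 5.97 CPM in PGCC (SD of 6 each), a log2 fold change of 2.11 (SE 0.13, adjusted p = 4.0e-08, edgeR). PCOLCE, which speeds the removal of the carboxyl propeptide, rose by 1.61 on the log2 scale (adjusted p = 1.7e-04, edgeR). TMEM38B, an ion channel of the endoplasmic reticulum (log2 fold change -0.50, adjusted p = 0.047, edgeR), and MIA3, which loads collagen into transport carriers (-0.49, adjusted p = 0.0046, edgeR), had the largest falls that passed. SERPINH1, the collagen chaperone, was at 0.147 CPM in parental cells and 0.335 CPM in PGCC, near the floor of 3 counts.

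Of 10 collagen receptor genes, 6 were tested and 3 were higher, with 0 lower and a median of 0.94, beside 23.1% higher and 24.3% lower among all genes. With the block all 6 were higher, beside 27.9%. MRC2, an endocytic receptor that takes up collagen fragments, had 4.88 ± 0.88 CPM in parental cells and 30.3 ± 3.70 CPM in PGCC (SD of 6 each), a log2 fold change of 2.64 (SE 0.14, adjusted p = 1.4e-08, edgeR). DDR2, a receptor kinase for fibrillar collagen, rose by 1.86 (adjusted p = 1.3e-05, edgeR) from 0.680 CPM. Of 16 genes for collagen degradation and its inhibitors, 9 were tested, 7 were higher and 1 was lower with and without the block, beside 23.1% and 24.3% of all genes without it, and the median was 0.83. With the block the shares of all genes were 27.9% and 28.3%. MMP13, a collagenase, had 39.2 ± 26.4 CPM in parental cells and 224 ± 79.8 CPM in PGCC (SD of 6 each) (log2 fold change 2.51, SE 0.38, adjusted p = 1.1e-04, edgeR). CTSK, a lysosomal protease, rose by 1.2 (adjusted p = 0.0010, edgeR), and MMP15, a membrane-bound protease, was at -1.01 on that scale (adjusted p = 0.0083, edgeR). With the block, MMP13 was lower in PGCC with LCL521 than in PGCC without it (log2 fold change -0.20, adjusted p = 0.0033, edgeR).

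Of 27 genes for matrix proteins that assemble with collagens, 22 were tested, 11 were higher and 3 lower, beside 23.1% and 24.3% of all genes, with a median of 0.47. With the block 12 were higher and 3 lower, beside 27.9% and 28.3% of all genes. SPARC, which binds collagen as it leaves the cell, had 363 ± 43.8 CPM in parental cells and 176 ± 8.58 CPM in PGCC (SD of 6 each) (log2 fold change -1.03, SE 0.08, adjusted p = 5.1e-07, edgeR). POSTN, a partner of type I fibrils, was at -2.21 on the log2 scale (adjusted p = 4.1e-07, edgeR), while VCAN, a large proteoglycan, had the largest rise (2.93, adjusted p = 1.7e-04, edgeR). With the block, LAMA3, a laminin chain, was higher in PGCC with LCL521 than without it (0.22, adjusted p = 0.0017, edgeR). In the libraries with LCL521 the numbers that rose and fell in PGCC were 11 and 4 of 31 tested for synthesis, 5 and 0 of 7 for receptors, 7 and 1 of 9 for degradation, and 11 and 2 of 21 for matrix partners, beside 25% and 23.9% of all genes. With the block they were 11 and 6, 7 and 0, 7 and 1, and 12 and 3, beside 29.5% and 26.8%.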

How the data were processed

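RNA was sequenced from 24 libraries. The deposited values are read counts per gene, which the authors made with STAR and HTSeq on hg19, per the submitters' processing notes and the study's methods, without normalization. Gene lengths and coordinates are those of the deposited table, and no per-sample column was left out. Depth was 14835246 to 19906601 counts per library, and libraries of a condition differed beyond sampling noise (chi-square per degree of freedom 4.98 to 110.5 over 60 pairs). The strand setting of the counting is not given in the sources used here, and similar chains may share reads.

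Each comparison was fitted over all genes with edgeR 4.0.16 (R 4.3.3): filterByExpr (minimum count 10, minimum total 15), TMM scaling, the quasi-likelihood test on the 12 libraries compared (24 for the interaction) and Benjamini-Hochberg adjustment over all genes tested, and calls were made at an adjusted p of 0.05 whatever the fold. CPM is the count scaled by the library total times its TMM factor, and CPM per kb divides it by gene length. SE is the log2 fold change divided by the square root of F. The steps were tested on simulated counts. Same-numbered libraries deviated together from their condition means (lowest of 6 correlations 0.280, 0.176, 0.560 and 0.438 in the 4 comparisons of 2 conditions), and the labels describe 6 rounds run in parallel, so the replicate number was fitted as a block as an alternative to the fit without it. Alternatives were DESeq2 1.42.0, limma-voom 3.58.1, RLE and upper quartile factors, library totals, other filters, a length correction, 1 fit of all libraries, and leaving out each replicate or replicates 4 and 5 or 1, 2, 3 and 6.

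Members and lists were chosen with earlier results of these data known. Full statistics are given for genes past the threshold with a log2 fold change of at least 1 in size and for the 5 highest per kilobase, and levels or highest counts for the others. For LCL521, genes that passed or else those of the 3 lowest p-values are named, except in PGCC with the block. The synthesis, receptor and degradation lists name the 2 largest rises and falls that passed. SERPINH1 is named outside this rule, for its level. Genes of the matrix partner list were named after their values were seen. Pairs of collagen genes within 200 kb are described as neighbours. Some members of the marker and matrix partner lists are counted there and not reported by name here.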

Additional observations from a re-analysis of the deposited data

Results flagged for a closer look

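Among 96 groups of 6 libraries (24 genes in 4 conditions), 9 held 1 library set apart from the other 5 by Dixon's test at the 95% level, where chance alone sets 1 library apart in some groups. COL1A2 was set apart high in replicate 5, at 127 CPM in parental cells and 108 CPM in parental cells with LCL521. COL21A1 was high in the same replicate, at 5.53 and 4.29 CPM, as was COL4A6 in parental cells at 10.3 CPM. COL16A1 was high in replicate 4, at 7.77 CPM in parental cells and 9.12 CPM with LCL521. COL17A1 was at 0.541 CPM in replicate 3 of parental cells, and COL15A1 at 1.56 CPM in replicate 6 of PGCC. Of the 9, 5 were in replicate 5 and 2 in replicate 4. No collagen gene had an interaction of LCL521 and population that passed.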

How the results depend on the processing

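Fits with the replicate block called 16 collagen genes between PGCC and parental cells and 17 with LCL521, all higher, and beyond COL12A1 and COL21A1 the block changed no call of a collagen gene between these populations over all 6 replicates. All genes called with the block were 7765 of 13812, and 7780 of 13818 with LCL521. The called number moved most when replicates 4 and 5 were left out and the block was fitted, to 24, beside 8881 of all 13809 genes. Leaving out each replicate in turn gave 13 to 16 collagen genes called, 16 to 19 with LCL521, 13 to 16 synthesis genes called and 12 to 15 with LCL521. Calls among all genes moved as well, from 5529 of 13891 without replicate 1 to 6333 of 13809 without replicate 4. With LCL521 they went from 5734 of 13823 without replicate 3 to 6339 of 13827 without replicate 4. Direction was lost in collagen genes that had not passed. COL18A1 was at 0.0501 with library totals alone, and between -0.12 and 0.0443 when single replicates were left out. COL15A1 was between -0.24 and 0.52, and the COL17A1 interaction between -2.03 and 0.0428. In replicates 4 and 5 alone, the log2 fold change was -0.42 for COL8A1, -0.039 for COL4A1, -0.0377 for COL7A1, 0.28 for COL1A1, 0.25 for COL18A1 and -0.897 for COL15A1. In the same replicates with LCL521 it was -0.26 for COL16A1, 0.40 for COL1A1, -0.20 for COL15A1 and -0.15 for COL8A1, and LCL521 in PGCC gave 0.015 for COL11A1. COL16A1 passed without replicate 4 (0.78, and 0.89 with LCL521), and COL21A1 (0.98) and COL8A1 (0.70) passed without replicate 5. COL1A2 lost its call under the length correction (0.81). In replicates 4 and 5 alone COL5A2 (0.24) and COL3A1 (0.80) lost their calls and stayed above 0. With LCL521, COL24A1 (1.00), COL21A1 (0.57) and COL3A1 (0.52) did the same in these replicates. The cause was not tested in any of these.

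The filter on low counts kept 24 of 43 genes, and a filter of at least 10 counts in every library kept 21, of which 12 were called, since fewer genes were tested. Under that filter 5649 of all 12106 genes tested were called. That filter gave no value for the genes it removed.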

Other observations

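COL26A1 carries a collagen symbol but is listed in the table as a polymorphic pseudogene and was not among the 43 genes. It had between 0 and 6 counts per library.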
